A study of Mus musculus with 16 samples.

Results

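The genes described here are 5 transcription factors of the beta cell and its progenitors, Mafa, Mnx1, Nkx6-2, Nkx6-1 and Isl1, chosen by symbol from the 22869 genes that the study counted. RNA of whole mouse pancreata at embryonic day 15.5 was sequenced from 5 double heterozygous (Pdx1LacZ/+;Oc1+/-), 4 Pdx1 heterozygous (Pdx1LacZ/+), 3 Oc1 heterozygous (Oc1+/-) and 4 control libraries, all on a mixed background. The Pdx1LacZ allele places lacZ at the Pdx1 locus, and Oc1 is the protein of the gene listed as Onecut1. The labels name no Cre or other cell type driver, and they call the source pancreatic progenitors although whole pancreata were taken. The study asks how Pdx1 and Oc1 act together on the endocrine program. Whether the replicates are from different litters is not in the labels, and a p-value here measures the spread between libraries, which may be technical.

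Beta cells arise from Neurog3-positive endocrine progenitors, and the first insulin-positive cells mature further before and after birth. Mafa binds the insulin promoter and marks the mature mouse beta cell. Nkx6-1 and its paralog Nkx6-2 are homeodomain repressors of pancreatic progenitors, Nkx6-1 remaining in beta cells. Mnx1 is a homeodomain factor needed first for the dorsal pancreatic bud and later for beta cell identity. Isl1 is a LIM-homeodomain factor of the dorsal mesenchyme and of all islet endocrine cells. Outside the pancreas Mnx1, Isl1 and the Nkx6 factors are known from motor neuron development.

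All values come from the authors' deposited table of 2283 genes. For each comparison it holds a log2 fold change, the mean log2 CPM (counts scaled to library size), and p-values before and after adjustment. It holds no value per library. Of the 5 factors, 3 stand in it: Mafa at a mean log2 CPM of 1.11, Mnx1 at 1.68 and Nkx6-2 at 3.68, which is 2.16, 3.21 and 12.8 CPM. These levels are not corrected for transcript length and are not compared between genes. Mafa lay just above the minimum mean log2 CPM of 1 used below to seek nearest genes. How many reads per library stand behind the changes of Mafa and Mnx1 was not analysed. Nkx6-1 and Isl1 were counted but are not in the table. Every listed gene had, in 1 or more of 5 comparisons, a change of 1.5-fold or more whose adjusted p was below 0.1. Nkx6-1 and Isl1 were therefore taken not to have reached both limits in any of them, and no fold change is given for either. A gene was counted as changed where its adjusted p was under 0.05 and its fold change at least 1.5. In a bulk sample, fewer cells of a type and less RNA per cell cannot be told apart.

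The tissue label and the mutated genes were checked first. The acinar genes Ctrb1 and Cpa1 had a mean log2 CPM of 13.65 and 12.55, and glucagon (Gcg) and Ins2 of 10.09 and 7.61, per the authors' deposited table. Pdx1 stood at -0.61 in the double heterozygotes (adjusted p = 5.03e-07) and at -0.47 in the Pdx1 heterozygotes (adjusted p = 0.00427) against control per the authors' deposited table. Onecut1 stood at -0.27 in the double heterozygotes and at -0.48 in the Oc1 heterozygotes against control per the authors' deposited table (adjusted p = 0.954 and 0.146). Neither of these passed, but Onecut1 stood at -0.70 in the double against the Pdx1 heterozygotes (adjusted p = 0.0319, sign turned) and at 0.90 in the Pdx1 against the Oc1 heterozygotes (adjusted p = 0.00191) per the authors' deposited table. Both groups with the Oc1 allele thus had less Onecut1 RNA than the Pdx1 heterozygotes. The Pdx1 heterozygotes themselves stood at 0.42 against control (adjusted p = 0.828 by the authors' edgeR test). Part of both differences can therefore lie in the Pdx1 heterozygotes, and less Onecut1 RNA than in control was not established. The labels do not say what part of the gene the allele lacks. The headings of this table contradict each other, and the genotypes are read here with the headings of the comparisons with control kept as printed. If those of the double and Pdx1 heterozygotes were exchanged, all their values would trade places, and Onecut1 would stand at 0.42 against control and 0.90 above the Oc1 heterozygotes in the double heterozygotes.

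Against control, the comparison asks whether the factors differ when 1 copy of both Pdx1 and Oc1 is lost. In the double heterozygotes Mafa and Mnx1 fell and Nkx6-2 rose. Counted against all 5 factors, 2 were lower and 1 higher. Of the 22869 genes, 0.555% were lower and 0.188% higher by the same limits, 0.743% in all. The factors were chosen with earlier results of these data known, so these counts are a description and not a test.

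Mafa, the insulin promoter activator, fell by 1.57 on the log2 scale in the double heterozygotes per the authors' deposited table (2.98-fold lower, standard error 0.29 as implied by the p-value, adjusted p = 2.76e-05). The 95% interval of that log2 change ran from -2.14 to -1.01. Its p-value was about the 40th smallest of all genes counted.

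Mnx1 fell by 1.44 on the log2 scale (2.72-fold lower, implied standard error 0.22, adjusted p = 1.61e-07) per the authors' deposited table. The interval was -1.88 to -1.0, which overlaps most of that of Mafa, and the difference between the 2 decreases was not tested. The p-value of Mnx1 stood nearer the top of the list, about the 15th smallest.

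Nkx6-2, the progenitor repressor, moved the other way. It rose by 0.73 in the double heterozygotes per the authors' deposited table (1.66-fold, implied standard error 0.19, adjusted p = 0.0138), with an interval of 0.36 to 1.10. Its p-value was about the 155th smallest. The count table holds 2 transcript rows for Nkx6-2, and the row marked as best is that of a non-coding transcript and not the coding one. The comparison table does not say which of them it used. In the GENCODE M21 annotation Nkx6-2 also overlaps Inpp5a on the opposite strand, and the library kit does not mark strand, so reads in the overlap cannot be assigned to one of the genes. The other 4 factors have 1 transcript row each and no overlapping annotated gene.

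The windows before the annotated starts of Mnx1 and Nkx6-2 are shown because these 2 genes changed in opposite directions in the double heterozygotes. Each covers the 250 bases before the start, from RefSeq on build GRCm38.p6, which is not the mm9 build of the study, on the minus strand and written in the direction of the gene. Capitals mark the homeodomain core TAAT or its reverse complement ATTA.
Mnx1, chr5:29478471-29478720: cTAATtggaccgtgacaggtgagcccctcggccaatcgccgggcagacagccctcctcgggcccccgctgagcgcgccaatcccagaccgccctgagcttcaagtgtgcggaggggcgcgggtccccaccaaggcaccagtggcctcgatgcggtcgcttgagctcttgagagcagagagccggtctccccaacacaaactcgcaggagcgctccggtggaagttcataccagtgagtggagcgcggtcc
Nkx6-2, chr7:139582798-139583047: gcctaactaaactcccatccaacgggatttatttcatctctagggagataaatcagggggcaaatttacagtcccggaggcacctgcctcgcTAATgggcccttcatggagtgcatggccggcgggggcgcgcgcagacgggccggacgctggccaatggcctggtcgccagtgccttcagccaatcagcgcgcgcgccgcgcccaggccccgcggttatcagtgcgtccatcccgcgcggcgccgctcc
Each window held 1 match, and 54.9% of 32851 windows of this length held TAAT on either strand. Searching both strands for the Onecut core letters ATCAAT and ATCGAT found no match in either window. Of all windows, 6.72% held ATCAAT and 0.728% held ATCGAT. A match of a few letters is a description of the sequence and shows no binding, and its absence from 250 bases says nothing of sites elsewhere. RefSeq promoter windows were matched for 4 of the 5 factors; Mafa had no entry.

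In the single heterozygotes none of the 3 listed factors passed the limits. In the Pdx1 heterozygotes 0 of 5 factors changed against control, beside 0.249% of all genes, and by the authors' edgeR test 1 of the 3 listed had an unadjusted p under 0.05. Mafa stood at -0.67 (interval -1.24 to -0.11, adjusted p = 0.648), per the authors' deposited table. Mnx1 stood at -0.42 per the authors' deposited table (interval -0.85 to 0.02, adjusted p = 0.923). Nkx6-2 stood at -0.11 per the authors' deposited table (interval -0.50 to 0.28, adjusted p = 1). The interval of Mafa lay below 0 before adjustment, while those of the other two held 0.

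In the Oc1 heterozygotes 0 of 5 factors changed against control, beside 6.24% of all genes, and 2 of the 3 listed had an unadjusted p under 0.05 by the authors' edgeR test. Those were Mnx1 at -0.49 (interval -0.96 to -0.02, adjusted p = 0.172) and Nkx6-2 at 0.51 (interval 0.10 to 0.92, adjusted p = 0.0841) per the authors' deposited table. Mafa stood at 0.35 (interval -0.22 to 0.93, adjusted p = 0.521) per the authors' deposited table. The 3 genotypes share the same control libraries, so these values are not independent of each other.

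**Figure D1:**
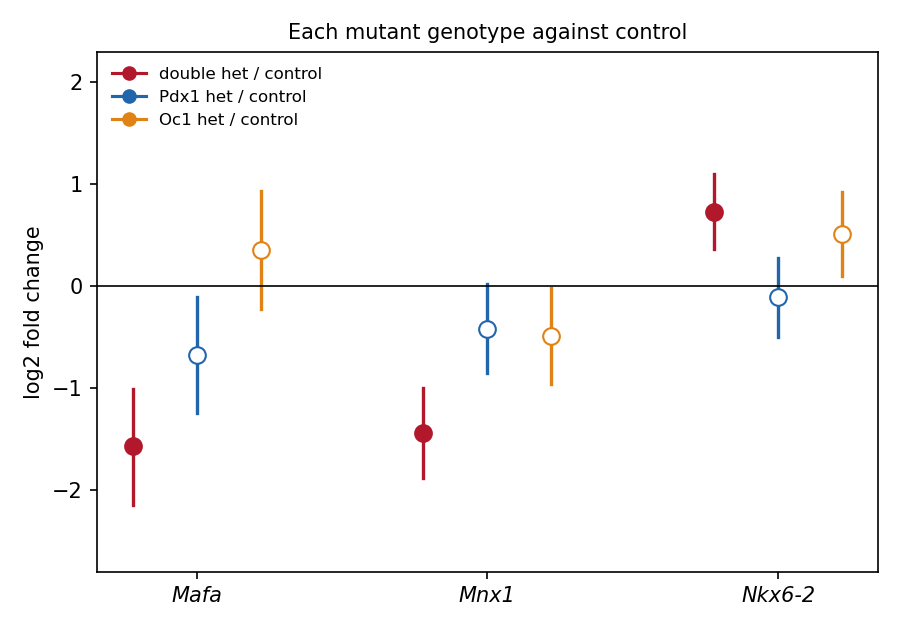
Log2 fold change of Mafa, Mnx1 and Nkx6-2 in the double, Pdx1 and Oc1 heterozygotes against control, with 95% intervals implied by the p-values (vertical lines); filled points had an adjusted p under 0.05 and a fold change of at least 1.5. The filled points are those of the double heterozygotes, at -1.57, -1.44 and 0.73.

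The comparisons between mutant genotypes ask what the second allele adds. Against the Pdx1 heterozygotes, 1 factor was lower and 1 higher in the double heterozygotes, beside 0.630% and 0.232% of all genes (0.861% in all). Mnx1 fell by 1.03 after turning the sign of the authors' deposited table (2.04-fold lower, implied standard error 0.22, adjusted p = 0.00138). Nkx6-2 rose by 0.84 after turning the sign of the authors' deposited table (1.79-fold, implied standard error 0.19, adjusted p = 0.00180). Mafa stood at -0.90 after turning the sign of the authors' deposited table (interval -1.48 to -0.32), and its adjusted p of 0.114 missed the limit.

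Against the Oc1 heterozygotes, a comparison derived here from the authors' values, 2 factors were lower in the double heterozygotes, beside 2.34% of all genes (3.85% in either direction, 1.52% higher). The table's limits were set on 5 other comparisons, so Nkx6-1, Isl1 and other unlisted genes could differ here unseen, and these shares count listed genes only. Mafa fell by 1.93 on the log2 scale (3.81-fold lower, interval -2.52 to -1.34, adjusted p = 2.4e-08 from a two-sided normal test). Mnx1 fell by 0.95 (1.94-fold lower, interval -1.43 to -0.48, adjusted p = 0.00283 from the same test). Nkx6-2 stood at 0.22 (interval -0.17 to 0.62, adjusted p = 1), so a difference of up to 0.62 on the log2 scale between these genotypes was within the interval.

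Between the single heterozygotes, the Pdx1 heterozygotes had 2 factors lower than the Oc1 heterozygotes, beside 2.46% of all genes (4.66% in either direction, 2.20% higher). Mafa stood at -1.03 and Nkx6-2 at -0.62 per the authors' deposited table (adjusted p = 0.00939 and 0.0335), which is 2.04-fold and 1.53-fold lower. Mnx1 stood at 0.07 per the authors' deposited table (interval -0.40 to 0.55, adjusted p = 1). The fold change of Nkx6-2 here lay just inside the limit of 1.5.

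**Figure D2:**
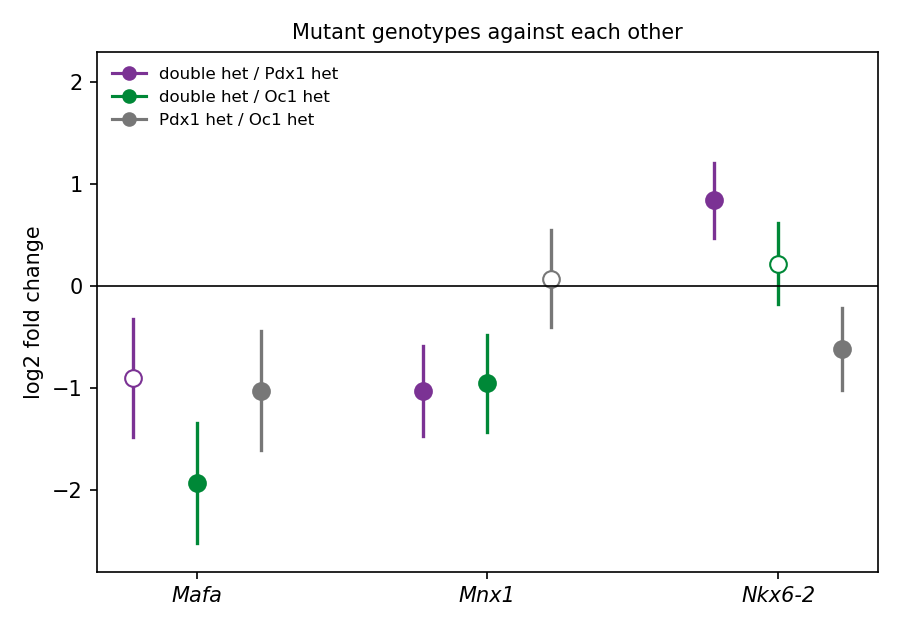
Log2 fold change of Mafa, Mnx1 and Nkx6-2 between mutant genotypes, with the double heterozygote over the Pdx1 heterozygote, the double over the Oc1 heterozygote and the Pdx1 over the Oc1 heterozygote; lines are 95% intervals implied by the p-values and filled points passed both limits. Mnx1 separated the double heterozygotes from both single ones (-1.03 and -0.95), and Nkx6-2 separated the Pdx1 heterozygotes from both others (0.84 and -0.62).

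Each factor thus had its own order of genotypes, all on the log2 scale relative to control. Mafa ran from the double heterozygotes (-1.57) through the Pdx1 heterozygotes (-0.67) and control to the Oc1 heterozygotes (0.35), per the authors' deposited table. No 2 neighbours in that order passed the limits, while double against control, double against Oc1 and Pdx1 against Oc1 heterozygotes did. Mnx1 was lowest in the double heterozygotes, which differed from all 3 other groups, and those 3 did not pass against each other. For Nkx6-2 the double and Oc1 heterozygotes were the 2 higher groups and control and Pdx1 heterozygotes the 2 lower ones. The double heterozygotes passed against control and against Pdx1 heterozygotes, and Oc1 against Pdx1 heterozygotes passed too.

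Whether the double heterozygotes differed from the sum of the 2 single-allele changes was tested as an interaction, derived from the same table. For Mafa the single changes sum to -0.32, against the observed -1.57, an interaction of -1.25 on the log2 scale (interval -2.07 to -0.44, adjusted p = 0.0613 from a two-sided normal test). For Mnx1 they sum to -0.90, against -1.44, an interaction of -0.54 (interval -1.18 to 0.11, adjusted p = 1). For Nkx6-2 they sum to 0.40, against 0.73, an interaction of 0.33 (interval -0.22 to 0.88, adjusted p = 1). None of the 3 passed, beside 4.01% of all genes (2.60% lower, 1.41% higher), and 1, Mafa, had an unadjusted p under 0.05 (0.00257). Here too these shares count listed genes only, and unlisted genes could differ unseen. The adjusted p-values of the interaction were made with 1 for unlisted genes, so they could be lower with those genes' own p-values. The interval of Mafa lay below 0 before adjustment, and those of Mnx1 and Nkx6-2 held 0.

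**Figure D3:**
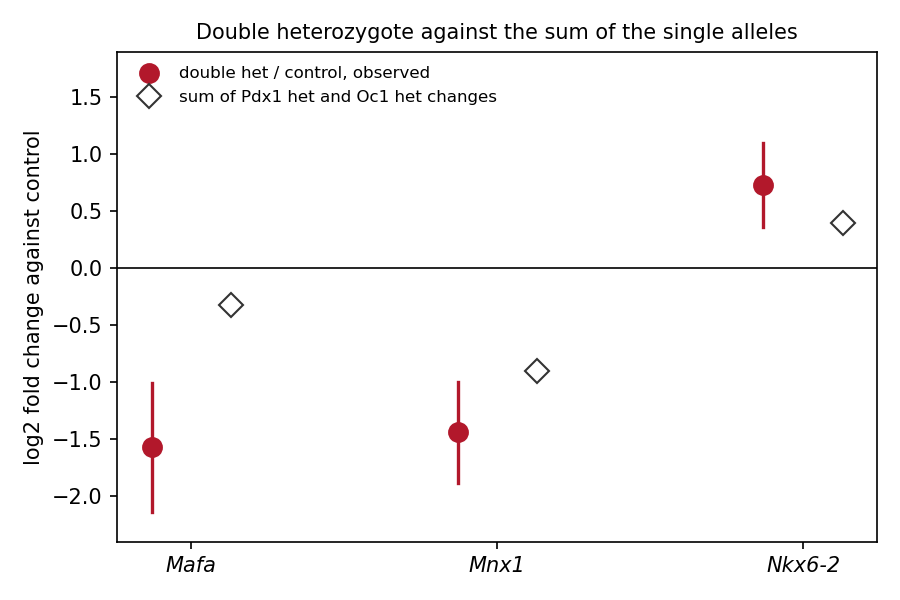
Log2 fold change against control observed in the double heterozygotes (circles, with 95% intervals implied by the p-values) beside the sum of the changes in the Pdx1 and Oc1 heterozygotes (diamonds). The sums for Mafa (-0.32) and Mnx1 (-0.90) lie outside the intervals of the observed changes, but the interaction tests, which also count the error of the sum, had adjusted p-values of 0.0613 and 1.

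Some other transcription factors of the endocrine and beta cell lineage were lower in the double heterozygotes too. Of 25 such genes, 10 stand in the table, and 6 of the 25 fell against control, beside 0.555% of all genes; Pdx1, which carries a mutated allele, is one of them. Neurog3, the switch of progenitors into the endocrine lineage, stood at -0.75 and its target Pax4 at -0.72 per the authors' deposited table (adjusted p = 0.00025 and 0.0259). Myt1 and Pax6 stood at -0.66 and -0.64 per the authors' deposited table (adjusted p = 0.00122 and 7.31e-06). Insm1, an endocrine zinc finger factor, stood at -0.63 per the authors' deposited table (adjusted p = 0.0419). Neurod1 stood at -0.41, under the fold limit, per the authors' deposited table (adjusted p = 0.0338). The median log2 change of the 10 was -0.62 with a range of -0.75 to -0.27, whereas the 2275 listed genes with a value had a median of 0.05. A gene is listed because it changed in some comparison, so these medians describe listed genes only. The 25 genes, too, were chosen with earlier results of these data known, so their count beside the share of all genes is no test.

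Neurog3 and Pax4 fell in the Oc1 heterozygotes per the authors' deposited table (-0.65 and -0.93, adjusted p = 0.00269 and 0.000787), beside 2.59% of genes lower in that comparison. Myt1 stood there at -0.50, under the fold limit (adjusted p = 0.0221). At an unadjusted p under 0.05 by the authors' edgeR test 5 of the 25 were lower there and none higher. In the derived comparison of double against Oc1 heterozygotes 1 of the 25 was lower and none higher, beside 2.34% and 1.52% of all genes. Neurog3 and Myt1 stood at -0.10 and -0.16 in it and did not pass, and Pax4 had no p-value. None of the 25 passed both limits in the Pdx1 heterozygotes by the authors' edgeR test (2 lower and 2 higher at an unadjusted p under 0.05), where Pax4 stood at 0.01 per the authors' deposited table.

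Most beta cell products fell in the double heterozygotes. Of 23 product genes 16 fell there against control, beside 0.555% of all genes, with a median of -0.77 over the 21 listed. This list was also chosen with earlier results of these data known, so its count is a description and not a test. Ins1 and Ins2 stood at -2.36 and -2.18, Iapp, the islet amyloid peptide, at -1.92, and G6pc2, an islet glucose-6-phosphatase, at -1.69 per the authors' deposited table (adjusted p = 8.89e-23, 7.89e-25, 1.79e-18 and 3.59e-11). The channel genes Kcnj11 and Abcc8 stood at -0.83 and -0.77, and Papss2, a sulfate donor synthase, at -0.70, per the authors' deposited table (adjusted p = 3.46e-12, 4.32e-08 and 1.32e-08). Against control, 7 of the 23 rose in the Oc1 heterozygotes, beside 3.66% of all genes, among them Ins1 (0.93, adjusted p = 0.00192) and Pcx (0.90, adjusted p = 3.69e-07) per the authors' deposited table, where Mafa stood at 0.35 and did not pass. In the Pdx1 heterozygotes 1 product gene passed both limits as lower (Npy, a neuropeptide) and 1 as higher (Slc2a2, the glucose transporter), beside 0.0437% and 0.206% of all genes. At an unadjusted p under 0.05 by the authors' edgeR test 8 were lower and 2 higher there. Of the 21 listed, 16 stood below 0. Kcnj11 stood at -0.56, under the fold limit (adjusted p = 0.000533), per the authors' deposited table. Ins1 and Ins2 stood at -0.50 and -0.52 (adjusted p = 0.763 and 0.527) per the same table.

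**Figure D4:**
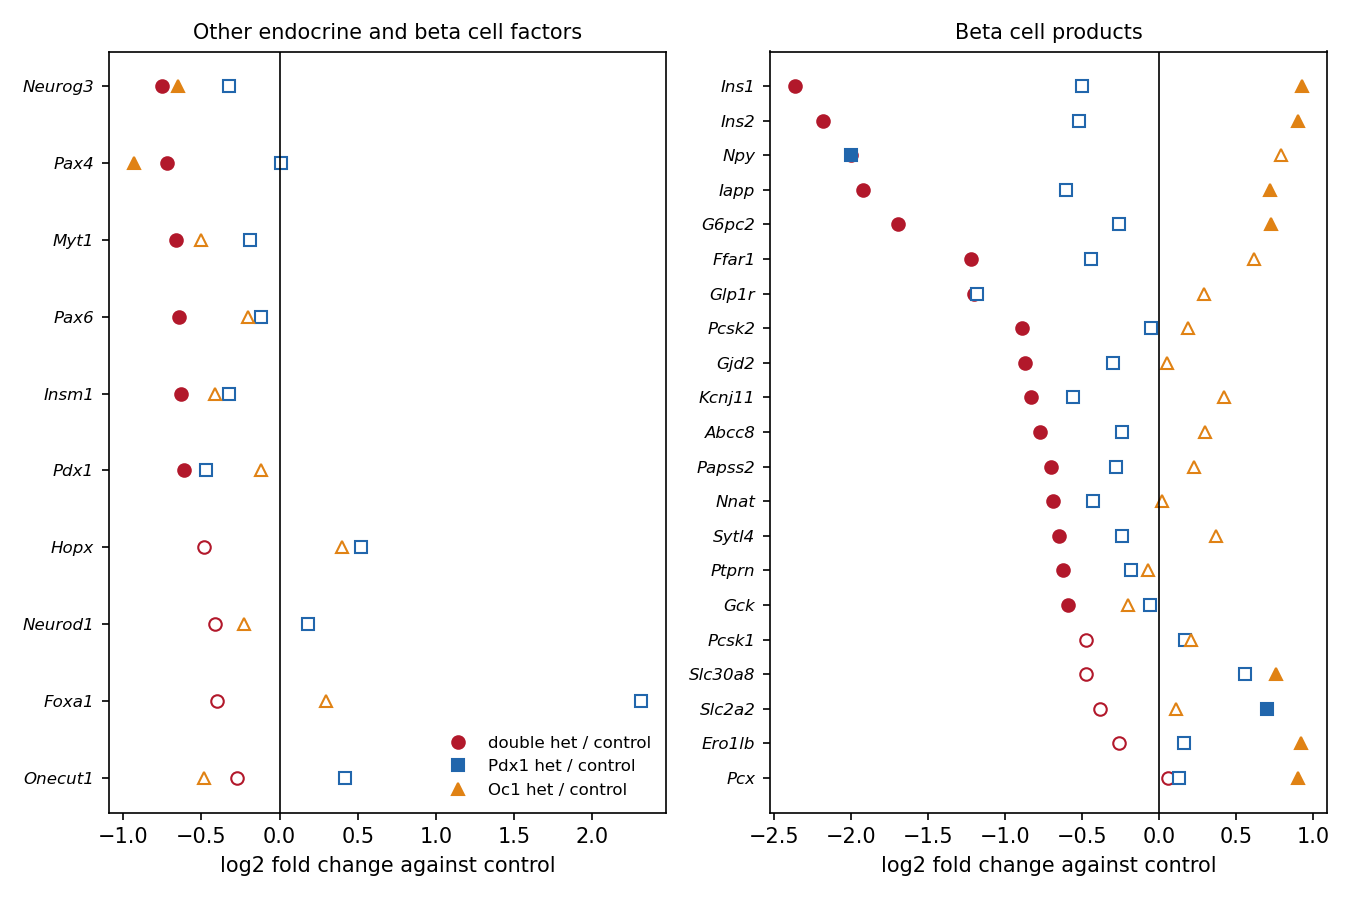
Log2 fold change against control of the listed genes among 25 other endocrine and beta cell factors (left) and 23 beta cell products (right) in the double (circles), Pdx1 (squares) and Oc1 heterozygotes (triangles); filled marks passed both limits. The filled circles of the factors lie between -0.75 and -0.61, and those of the products reach -2.36 for Ins1.

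The genes whose 3 changes against control lay nearest to each factor were sought among the 1610 listed genes whose mean log2 CPM was 1 or more, by the Euclidean distance over the 3 log2 fold changes. Nearest to Mafa were Muc4, a membrane mucin, at a distance of 0.36, Fgb, a fibrinogen chain of liver, at 0.41, and Adra2a, an adrenergic receptor of beta cells, at 0.50. Nearest to Mnx1 were the hormone gene Gast at 0.29, the lipase Lipg at 0.43 and the protease gene Usp18 at 0.48. Nearest to Nkx6-2 were 4930556M19Rik at 0.30, Fabp4, a fatty acid binding protein, at 0.31 and Hp, haptoglobin, at 0.32. Gast stood at -1.55 in the double heterozygotes per the authors' deposited table (adjusted p = 5.91e-07), close to Mnx1 at -1.44. Fabp4 stood at 0.64 in the double and 0.79 in the Oc1 heterozygotes per the authors' deposited table (adjusted p = 0.00660 and 0.000135). These distances rest on 3 comparisons that share their controls.

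Markers of other cells that express these factors or could enter a dissection moved as follows, and their counts stand beside 0.555% of all genes lower and 0.188% higher in the double heterozygotes and 2.59% lower and 3.66% higher in the Oc1 heterozygotes, all against control. Of 12 markers of alpha, delta and other endocrine cells 3 were lower in the double heterozygotes against control (range -1.55 to -0.02 over 9 listed), Gcg, Sst and Gast. In the Oc1 heterozygotes 2 of these 12 were higher, Sst at 1.01 and Ppy at 0.97, and none was lower (range -0.51 to 1.01). Of 20 neural, Schwann and motor neuron genes, cells that can carry Mnx1 and Isl1, none changed in the double heterozygotes by the authors' edgeR test (range -0.75 to 0.13 over 9 listed, 3 of them lower at an unadjusted p under 0.05). In the Oc1 heterozygotes 4 of these 20 were lower and 1 was higher. Of 9 mesenchyme and spleen genes none changed in the double heterozygotes by the authors' edgeR test (range 0.04 to 0.75 over 7 listed, 2 higher at an unadjusted p under 0.05), and 5 were lower in the Oc1 heterozygotes. Of 14 acinar genes 12 rose in the Oc1 heterozygotes, with a median of 1.73 over those 12, and none passed in the double heterozygotes by the authors' edgeR test (5 higher at an unadjusted p under 0.05; range -0.22 to 1.45). Of 8 liver genes 3 fell in the double heterozygotes, Alb, Apoh and Fgb (range -2.28 to -0.57 over 5 listed). In the Pdx1 heterozygotes none passed by the authors' edgeR test, beside 0.0437% of all genes lower. All 5 listed liver genes stood below 0 there (range -2.05 to -0.48, 4 lower at an unadjusted p under 0.05). None passed in the Oc1 heterozygotes either (range -1.23 to 0.13, 1 lower at an unadjusted p under 0.05). Lower liver genes were thus not particular to the double heterozygotes. Of 10 stomach and intestine genes 2 were lower in the double heterozygotes (Gkn2 and Apoa1) and 1 higher (Cldn18, at 1.67). In the Oc1 heterozygotes 3 were higher, Cldn18 at 2.05, Tff2 at 1.76 and Vil1 at 1.14, and none was lower. In the Pdx1 heterozygotes 1 was higher, Lgals4 at 3.52, beside 0.206% of all genes, and none was lower. Changes of stomach and intestine genes were thus not particular to the double heterozygotes. Of 6 erythroid and leukocyte genes the 2 listed stood in the double heterozygotes at -0.11 (Hbb-y) and 0.14 (C1qa) per the authors' deposited table. Hbb-y was lower and C1qa higher in the Oc1 heterozygotes. These marker genes have no value per library in the table, so their summed levels by group are not given. The part of these cells in the changes of Mafa, Mnx1 and Nkx6-2 was not tested.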

How the data were processed

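RNA of whole embryonic pancreata was sequenced from 16 libraries in 4 genotype groups, grouped by their titles. Per the labels' protocols, pancreata went into Trizol after dissection and libraries were made with a TruSeq RNA kit. CASAVA 1.8.2, edgeR and build mm9 were used, per the submitters' processing notes; the aligner and edgeR's version are not given in the sources used here. The names of the 16 count columns (flow cell, lane, index) match no sample label, so these columns were not used, and of that table only symbols and transcript marks were read. Depth per library, values per library and any refit were therefore not analysed here, and the refit that was foreseen where columns could be tied to samples was not made.

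Per the file headers, the authors deposited for each of 5 comparisons log2 fold changes, the mean log2 CPM and p-values before and after adjustment. The cells that hold p-values were deposited by the authors shifted by 1 column in 8 rows, where they read as another score, and were moved back. Against their headings, block 4 was Pdx1 minus double heterozygote (2275 of 2275 rows, tolerance 1e-06) and block 5 was Pdx1 minus Oc1 heterozygote (2279 of 2279 rows); block 4 was sign-turned and block 5 read accordingly. The same arithmetic holds if the headings of blocks 1 and 3 are exchanged, and then blocks 4 and 5 would be right as headed, with no sign turned. Median variances, as multiples of that in block 1, were 1.15, 0.905, 0.897 and 1.14 for blocks 2 to 5; group sizes give 1.17, 0.900, 0.900 and 1.17 as printed and 1.30, 1.11, 1 and 1.19 exchanged; the observed values are nearer to the headings as printed. Exchanged, Onecut1 would be at 0.42 against control in the double heterozygotes, which carry the Oc1 mutation, in place of -0.27. The printed headings of blocks 1 to 3 were kept for these 2 reasons.

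Dividing each log2 fold change by its p-value's normal quantile gave the standard error (p under 0.9). Double against Oc1 heterozygote and the interaction were added up from the deposited log2 fold changes, with variances summed from the blocks and averaged over 2 routes. Their p-values (normal, two-sided) received a Benjamini-Hochberg adjustment across 22869 genes, with 1 for unlisted genes. A run on simulated counts checked only the arithmetic of the derived comparisons. Its p-values were made from known variances by the same normal formula, so it could not show how well edgeR's p-values give standard errors. Ranks of p-values are the p-value times 22869 over the adjusted p. Genes were named by rule: the 5 factors, up to 8 genes per list by smallest adjusted p against control, 3 nearest genes per factor and called markers. A gene of the endocrine factor list is not reported here and was left out of its counts. The members and lists were chosen with earlier results of these data known. Python 3.11.15, pandas 2.3.3, numpy 2.4.6, scipy 1.17.1 and matplotlib 3.10.9 were used.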

Additional observations from a re-analysis of the deposited data

How the results depend on the processing

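No paired analysis was possible because the count columns carry no sample name and the comparison table holds no value per library. For the same reason leaving out replicates, another normalization, DESeq2 and another filter on low counts were not run, and whether 1 library carries a change cannot be told from these values. Of 96 recomputed values of the 3 listed factors, 89 kept their verdict, 6 lost a call and 1 gained it. The 89 include values that passed under neither setting. These settings change only the limits or the derived variances, so no log2 fold change and no sign could differ. With a fold minimum of 2, 2 factors in place of 3 passed between double heterozygotes and control (Mafa and Mnx1), and 1 factor passed in place of 2 between double and Pdx1 heterozygotes (Mnx1), between double and Oc1 heterozygotes (Mafa) and between Pdx1 and Oc1 heterozygotes (Mafa), by the limit's own construction. At an adjusted p under 0.01, 1 factor in place of 2 passed between Pdx1 and Oc1 heterozygotes, and Nkx6-2 no longer passed between double heterozygotes and control (adjusted p = 0.0138). At an adjusted p under 0.1 the interaction had 1 factor, Mafa, in place of 0. Removing the fold minimum or taking either route to the derived variances alone changed no call of the 3 factors. If the headings of blocks 1 and 3 were exchanged, which the variances and the level of Onecut1 go against, the double and Pdx1 heterozygotes would trade their values against control.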
